A study of Mus musculus with 10 samples.

Results

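The neighbours of Ankrd11 on mouse chromosome 8 are a set of 34 listed genes near the gene that was edited, read from the deposited table by name. The list leaves out other genes of the same stretch and was chosen with earlier results of these data known. Of these, 33 names matched a row among the 55401 genes of the table. The name Ca5a matched none. RefSeq gives it as another symbol of Car5a, whose values are stated below but not counted. By the GENCODE M21 annotation on GRCm38, the assembly that mm10 denotes, the 33 genes run over 1807 kb, from Jph3 to Gas8. Measured between gene starts, 18 lie at lower coordinates than Ankrd11, as far as 1313 kb away, and 15 at higher coordinates, as far as 477 kb away.

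Poly(A) RNA was sequenced from the mouse embryonic stem cell line E14. The labels give 4 libraries as untreated wild type and 6 as carrying the Y347A substitution in ANKRD11, introduced with CRISPR/Cas9. Wild-type libraries fall into 2 numbered sets and mutant libraries into 3, with 2 libraries in each set. What a set stands for (a clone, a culture, a batch) is left unsaid in the labels, as is the zygosity of the edit. Values are TPM, which correct for transcript length and scale every library to a total of 1000000 transcripts, so the sequencing depth is unknown. Each library held 12473 to 12812 genes at 1 TPM or more. Of 10 markers of embryonic stem cells, 1 rose (Esrrb) and 2 fell (Nanog and Zfp42) by the test described below. That test called 6.97% of all tested genes higher and 10.5% lower. Pou5f1 averaged 1224 TPM in wild type and 1123 TPM in the mutant. The summed TPM of 8 markers of fibroblast feeders, 2 of them tested and none called, was 4.64 to 7.25 in wild-type and 5.60 to 6.68 in mutant libraries. It rested mainly on Pdgfrb (2.985 ± 0.375 and 4.625 ± 0.444 TPM) and Thy1 (2.47 ± 0.506 and 1.21 ± 0.358 TPM). Neither passed (limma adjusted p = 0.052 and 0.067). Their values differed in opposite directions, so the sum cannot show either difference. The summed TPM of 7 primitive endoderm markers stayed at or below 1.65 TPM in every library. In bulk RNA, fewer cells of a type and less RNA per cell cannot be told apart.

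ANKRD11 is a nuclear ankyrin repeat protein that acts in transcriptional regulation together with histone deacetylases, and the study's title names cohesin as a binding partner. Cohesin folds chromosomes into loops and helps to keep enhancers and promoters in contact, commonly within blocks of neighbouring genes. This segment is gene dense and rich in G and C, and several of its genes start back to back from one promoter region. The comparison asks how the transcripts of these neighbours differed between the mutant and wild-type cells.

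The promoter sequences below are shown because the called members Cyba, Rnf166, Ctu2 and Galns, and Ankrd11 itself, start in them. The promoter of Piezo1, the other called member, is not shown. They come from RefSeq on GRCm38.p6, run from 250 bases before to 50 bases after the start of the named gene, and are written 5′ to 3′ on that gene's strand. Capitals mark the GC box GGGCGG and the CCAAT box CCAAT on either strand (CCGCCC and ATTGG on the reverse strand). The first is the Cyba promoter (chr8:122432891-122433190, minus strand). The Ctu2 window (chr8:122475893-122476192, plus strand) also holds the start of Rnf166, which is transcribed the other way. The Trappc2l window (chr8:122611376-122611675, plus strand) likewise holds the start of Galns, and the Ankrd11 window (chr8:123042235-123042534, minus strand) that of the non-coding RNA 2810013P06Rik.
Cyba: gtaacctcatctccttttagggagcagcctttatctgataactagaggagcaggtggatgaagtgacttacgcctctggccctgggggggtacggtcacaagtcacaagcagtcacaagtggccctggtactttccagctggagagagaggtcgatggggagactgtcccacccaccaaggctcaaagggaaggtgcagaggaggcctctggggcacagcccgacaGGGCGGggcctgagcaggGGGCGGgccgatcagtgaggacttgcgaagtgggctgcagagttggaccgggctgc
Ctu2: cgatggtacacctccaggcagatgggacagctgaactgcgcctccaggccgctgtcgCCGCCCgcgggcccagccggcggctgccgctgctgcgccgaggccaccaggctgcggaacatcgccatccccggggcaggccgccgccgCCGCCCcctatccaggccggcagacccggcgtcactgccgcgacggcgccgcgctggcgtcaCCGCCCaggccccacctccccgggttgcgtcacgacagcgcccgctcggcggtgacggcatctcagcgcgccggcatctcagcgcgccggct
Trappc2l: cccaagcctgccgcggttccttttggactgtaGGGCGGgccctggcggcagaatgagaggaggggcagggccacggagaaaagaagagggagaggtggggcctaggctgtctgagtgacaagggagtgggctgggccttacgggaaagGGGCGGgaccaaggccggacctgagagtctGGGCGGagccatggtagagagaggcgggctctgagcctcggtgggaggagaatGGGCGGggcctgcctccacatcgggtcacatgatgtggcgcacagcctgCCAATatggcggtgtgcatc
Ankrd11: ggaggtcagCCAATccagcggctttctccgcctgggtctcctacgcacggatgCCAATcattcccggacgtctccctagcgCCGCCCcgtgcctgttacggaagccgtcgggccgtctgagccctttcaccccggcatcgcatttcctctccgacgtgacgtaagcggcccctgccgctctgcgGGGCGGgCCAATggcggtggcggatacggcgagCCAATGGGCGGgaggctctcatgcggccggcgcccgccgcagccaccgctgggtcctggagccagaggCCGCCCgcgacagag

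The GC box occurred 2 times in the Cyba window, 3 times in the Ctu2 window, 4 times in the Trappc2l window and 4 times in the Ankrd11 window. Of 27025 RefSeq promoters of this length, 35.9% held at least 1. The CCAAT box occurred 4 times in the Ankrd11 window and once in the Trappc2l window, and 37.9% of all promoters held it. The motif TATAAA, searched on both strands and present in 14.2% of all promoters, was found in none of these 4 windows. The Ctu2 window had 44 CpG dinucleotides and 77.0% G and C, the Ankrd11 window 36 and 70.3%, the Trappc2l window 15 and 65.3%, and the Cyba window 9 and 60.7%. Over the 25 members with a promoter entry the medians were 19 CpG and 63.0% G and C, beside 7 and 52.7% over all promoters.

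Ankrd11 (chromosome 8, 122883822 to 123042277, minus strand), the edited gene, had 58.0 to 66.0 TPM in the wild-type libraries and 53.4 to 69.0 TPM in the mutant libraries, which overlap. Means were 62.4 ± 4.54 and 59.8 ± 5.65 TPM, and it did not pass the test between genotypes (log2 fold change -0.06 ± 0.10, limma adjusted p = 0.686). Its 95% interval ran from -0.30 to 0.17. An amino acid substitution leaves the transcript in place, so the labels cannot be checked by this level.

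Of the 33 matched members, 23 averaged at least 1 TPM over all libraries and were tested, together with 12797 genes in all. Cyba, Rnf166, Galns and Piezo1 rose in the mutant and Ctu2 fell, at a Benjamini-Hochberg adjusted p under 0.05 over all tested genes (limma on the means of the 2 wild-type and 3 mutant sets). These 5 calls make 21.7% of the tested members, and 17.5% of all tested genes were called, so the share is close to the background. By direction, 17.4% of the members were called higher where 6.97% of all genes were, and 4.35% were called lower where 10.5% of all genes were. The median log2 fold change over the tested members was 0.12, over all tested genes -0.04, and 14 of the 23 members had a positive value. The 13 other tested genes of the segment, Car5a counted among them, leaned the other way. Their median was -0.10 and 4 of them had a positive value. Rescaling by the median of ratios turned the split over all genes from 892 higher and 1350 lower to 1099 and 1065, and quantile normalization to 1073 and 1039, with the same 5 members called under both. Among the 635 tested genes of chromosome 8 outside this segment 13.7% were called. No test set the members against other genes. A gene that passed the filter only through a high level in a single genotype had to differ. No tested member was such a case, since the lowest means were 2.04 TPM in wild type and 1.79 TPM in the mutant, both of Dbndd1. These counts describe the 23 and not all 33 genes. Every fold change is mutant minus wild type in log2(TPM + 1), given ± SE, and is smaller for low genes than the ratio of their TPM. Each level is the mean of the set means in TPM, given ± SD, with n = 2 sets for the wild type and n = 3 for the mutant.

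Cyba (ENSMUSG00000006519.11, chromosome 8, 122424776 to 122432930, minus strand) encodes p22phox, the membrane subunit that stabilises the catalytic NOX proteins of NADPH oxidases, which make superoxide. It had 17.7 and 18.5 TPM in wild-type set 1 and 21.5 and 23.3 TPM in wild-type set 2. In the mutant it had 54.5 and 57.2 TPM in set 1, 36.4 and 35.8 TPM in set 2, and 61.4 and 62.7 TPM in set 3. All 6 mutant libraries lay above all 4 wild-type libraries, with mutant set 2 the lowest of the mutant sets. The mean went from 20.2 ± 3.08 to 51.3 ± 13.6 TPM, a ratio of 2.54 (log2 fold change 1.27 ± 0.22, limma adjusted p = 0.015). Over 27 alternative settings the fold change stayed between 1.12 and 1.50 and the adjusted p between 2.0e-04 and 0.119. The call was lost with no filter on mean TPM (0.068) and without mutant set 1 (0.060). It was also lost without wild-type set 1 or set 2, where the fold change was 1.12 or 1.42. Those fits leave 1 wild-type set and call few genes of any kind, so a call lost there says little about a particular gene.

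Cyba also differed within each genotype. Between the 3 mutant sets the limma F test over the 10 libraries gave an adjusted p of 4.2e-04, with set 2 lower than set 1 by 0.62 ± 0.06 and set 3 higher than set 2 by 0.77 on the log2 scale. Wild-type set 2 lay 0.30 above set 1 (adjusted p = 0.035), a call that was lost with no filter on mean TPM, after the GC correction and with no variance trend. These tests take the 2 libraries of a set as replicates, whose spread may be technical.

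Among other genes of the NADPH oxidase complexes, most were too low to test. Noxo1, an organiser of the NOX1 enzyme, was at 1.96 ± 0.269 and 2.59 ± 0.563 TPM, and the GTPase gene Rac1 at 117 ± 0.841 and 138 ± 11.95 TPM, and neither passed (adjusted p = 0.319 and 0.112 by limma). The catalytic subunits were low throughout: Cybb, which encodes gp91phox, had a mean of 0.182 TPM in wild type and 0.0133 TPM in the mutant, Nox4 0.630 and 0.243 TPM and Nox1 0.138 and 0.0767 TPM. Nox3, Ncf4 and Noxa1 were listed at 0 in all libraries. White blood cells are the cells best known for Cyba. Of 8 markers of these cells, Ptprc, Adgre1, Lyz2 and Tyrobp were listed at 0 in all libraries, and the summed TPM of the list was 16.6 to 19.7 in wild-type and 29.4 to 42.6 in mutant libraries. That sum rested on Cd68, a lysosomal membrane protein gene, which rose from 17.6 ± 1.61 to 33.7 ± 5.72 TPM (0.89 ± 0.14, limma adjusted p = 0.012).

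**Figure D1:**
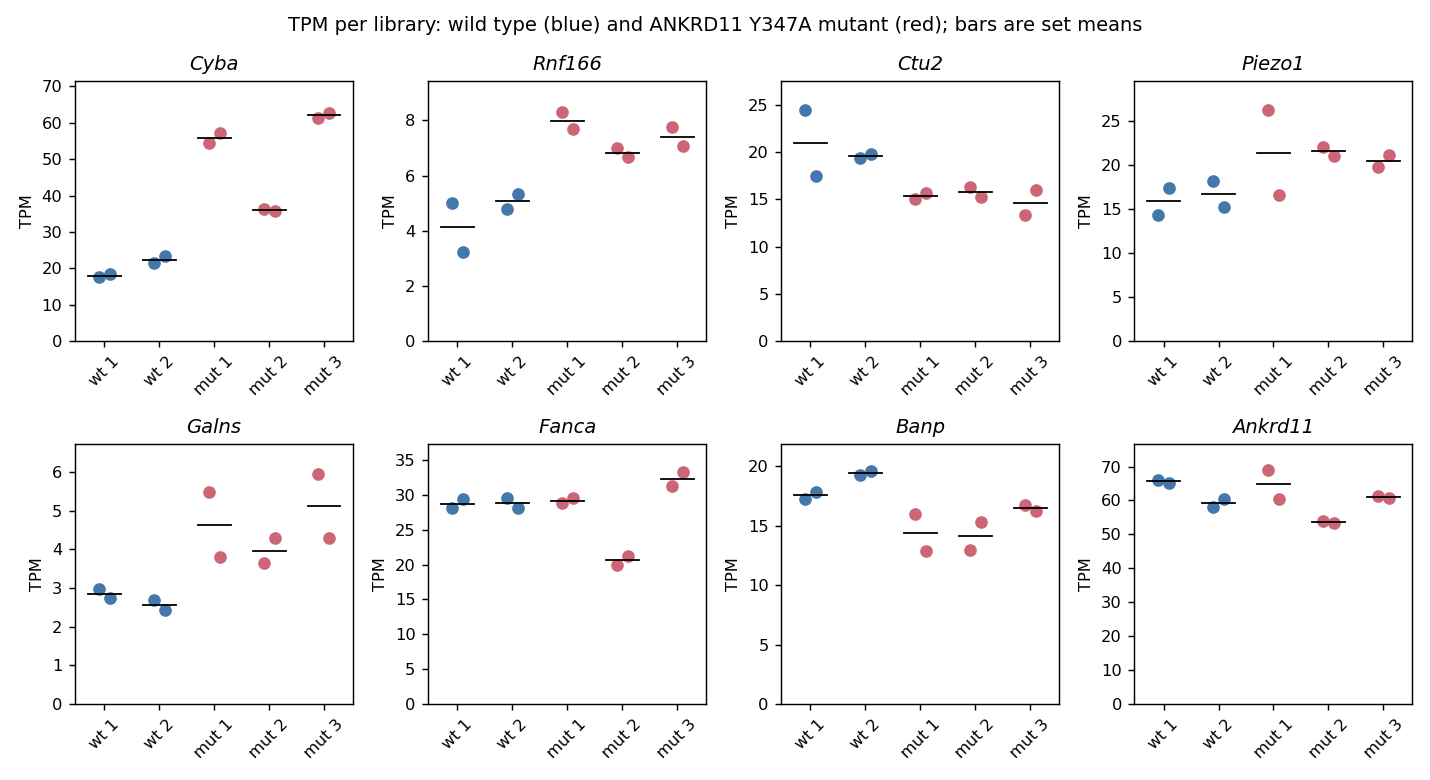
TPM in each library (points) and set means (bars) for the 5 called members, for Fanca and Banp, and for Ankrd11, with wild-type sets in blue and mutant sets in red, on linear axes from 0. Cyba, Rnf166 and Galns show all mutant points above all wild-type points, Ctu2 and Banp all mutant points below, and Fanca is low in mutant set 2.

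Rnf166 and Ctu2 start 78 bases apart and run in opposite directions, and they moved in opposite directions in the mutant. Rnf166 (ENSMUSG00000014470.4, chromosome 8, 122466147 to 122476064, minus strand) encodes a RING-type E3 ubiquitin ligase with known roles in antiviral signalling and in the autophagy of bacteria. Its wild-type libraries had 5.01, 3.24, 4.79 and 5.34 TPM, and its mutant libraries 8.31 and 7.67 TPM in set 1, 6.98 and 6.68 TPM in set 2, and 7.75 and 7.06 TPM in set 3. Every mutant library was above every wild-type library. The mean went from 4.60 ± 0.665 to 7.41 ± 0.580 TPM (0.60 ± 0.13, limma adjusted p = 0.028), a ratio of 1.61. The call was lost without mutant set 1 (adjusted p = 0.091) or set 3 (0.074), with no filter (0.084) and with the set number as a block (0.115). It was also lost with 1 wild-type set left (fold change 0.47 without set 1, 0.73 without set 2). Over all alternatives its adjusted p lay between 0.0015 and 0.168.

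Ctu2 (ENSMUSG00000049482.16, chromosome 8, 122476143 to 122484138, plus strand) encodes a subunit of the cytosolic enzyme that adds sulfur to the wobble uridine of some transfer RNAs. It had 24.4 and 17.5 TPM in wild-type set 1 and 19.4 and 19.8 TPM in set 2, against 15.02 and 15.7, 16.3 and 15.3, and 13.3 and 15.9 TPM in mutant sets 1, 2 and 3. The mutant libraries lay below the wild-type ones without overlap, and 1 wild-type library stood well above the others. The mean went from 20.3 ± 0.965 to 15.3 ± 0.581 TPM, a ratio of 0.752 (-0.38 ± 0.09, limma adjusted p = 0.032). Without that wild-type library, set 1 replicate 1, the value was -0.27 and the adjusted p 0.103. The call was also lost without mutant set 1 replicate 1 (0.051), with no filter (0.061) and with the set as a random block (0.066). The same held with the set number as a block (0.156) and without mutant set 1 (0.084) or mutant set 3 (0.081). With 1 wild-type set left it was lost as well (fold change -0.35 without set 1, -0.42 without set 2). Its adjusted p ranged from 0.0049 to 0.183. Among 11 other genes of tRNA thiolation and of Elongator, which acts on the same tRNAs, 1 rose and none fell. Shares over all tested genes were 6.97% higher and 10.5% lower. The gene that rose was Mpst, a sulfurtransferase (0.38 ± 0.10, limma adjusted p = 0.042). Ctu1, the partner of Ctu2, was at 4.69 ± 0.120 and 4.22 ± 0.213 TPM (adjusted p = 0.492).

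Piezo1 (ENSMUSG00000014444.17, chromosome 8, 122481698 to 122551329, minus strand), a mechanically gated cation channel, had 14.3, 17.4, 18.2 and 15.3 TPM in the wild-type libraries. Mutant values were 26.3 and 16.6 TPM in set 1, 22.1 and 20.98 TPM in set 2 and 19.7 and 21.1 TPM in set 3. The genotypes overlapped, since 1 library of mutant set 1 lay within the wild-type range and the other was the highest of all. Set means went from 16.3 ± 0.629 to 21.1 ± 0.615 TPM (0.35 ± 0.09, limma adjusted p = 0.037), a ratio of 1.30. This was the least stable of the 5 calls, kept under 12 of 27 alternatives, with an adjusted p between 0.026 and 0.247. With 1 wild-type set left the fold change was 0.31 (without set 1) or 0.39 (without set 2). The call was lost there, without any one mutant set, after a GC correction (0.069) and with the set as a random block (0.193), among others. Leaving out single libraries ended it for mutant set 1 replicate 1 (0.247) and replicate 2 (0.052), mutant set 3 replicate 2 (0.051), wild-type set 1 replicate 1 (0.067) and wild-type set 2 replicate 2 (0.094). The 3′ parts of Piezo1 and Ctu2 overlap on opposite strands over 2441 bases. No source used here states the strand mode of the counting, so reads from the overlap cannot be assigned with certainty to either gene.

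Galns (ENSMUSG00000015027.11, chromosome 8, 122578242 to 122611463, minus strand) encodes the lysosomal sulfatase that starts the breakdown of keratan sulfate, deficient in Morquio A disease. The wild-type libraries had 2.97, 2.75, 2.69 and 2.43 TPM. The mutant libraries had 5.48 and 3.81 TPM in set 1, 3.64 and 4.30 TPM in set 2, and 5.95 and 4.29 TPM in set 3, all above the wild-type range. The mean went from 2.71 ± 0.212 to 4.58 ± 0.578 TPM, a ratio of 1.69 (0.57 ± 0.14, limma adjusted p = 0.038). Its adjusted p lay between 0.0035 and 0.209 over 26 alternatives and passed in 17, and the gene is below the stricter filter of 5 TPM. The call was lost without mutant set 1 replicate 1 (0.084), mutant set 2 replicate 2 (0.066) or mutant set 3 replicate 2 (0.054), and without mutant sets 1 (0.106) or 3 (0.095). It was lost as well with no filter (0.113) and with the set number as a block (0.151). The same held with 1 wild-type set left (fold change 0.63 without set 1, 0.52 without set 2). Over the 11 tested other genes of lysosomal glycosaminoglycan breakdown the median log2 fold change was 0.19, with values of both signs. Among them Hexa, a lysosomal hexosaminidase gene, rose from 83.9 ± 10.97 to 118 ± 2.14 TPM (0.49 ± 0.09, limma adjusted p = 0.018). Some results of this list are not reported here, and the list was not tested as a set.

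In genomic order the 5 called members lay together. All fell within the 187 kb from Cyba to Galns, with gene starts 431 to 609 kb from that of Ankrd11 on the lower-coordinate side. Within that stretch Aprt, the enzyme that salvages adenine, did not pass (158 ± 4.54 and 148 ± 6.90 TPM, adjusted p = 0.377 by limma), and the transcriptional repressor gene Snai3 was too low to test. The unlisted genes Mvd (0.13 ± 0.10) and Cdt1 (-0.10 ± 0.07) also lie there and did not pass (limma adjusted p = 0.375 and 0.331). The grouping of the 5 called members was seen after the values were known and was not tested. Of the 12 tested members at lower coordinates than Ankrd11, 4 were called higher and 1 lower. Of the 11 at higher coordinates none was called or had an unadjusted limma p under 0.05. That holds for the listed genes only. On the same side the unlisted RNA 2810013P06Rik was called higher (0.78 ± 0.12, limma adjusted p = 0.011). Unlisted Spata33 (0.85 ± 0.26), Rpl13 (0.21 ± 0.06) and Sult5a1 (-0.57 ± 0.21) were not called. Their unadjusted limma p were 0.014, 0.014 and 0.031. Unlisted Tubb3 and Afg3l1 had neither a call nor such a p. Over all tested genes 17.5% were called, 6.97% higher and 10.5% lower, and no test compared the sides, which hold few genes each. The log2 fold changes of the 11 listed members at higher coordinates ran from -0.13 to 0.25. Their 95% intervals all lay between -0.56 (the lower limit of Dbndd1) and 0.57 (the upper limit of Zfp276). Spg7, the tested member closest to Ankrd11 and a subunit of the mitochondrial m-AAA protease, had 27.5 ± 0.0212 and 30.0 ± 2.83 TPM (0.12 ± 0.10). Acsf3, a mitochondrial malonyl-CoA synthetase and the nearest tested member on the other side, had 5.50 ± 0.272 and 7.64 ± 1.07 TPM (0.40 ± 0.14, adjusted p = 0.090). Acsf3 passed under 4 of 27 alternatives, with adjusted p from 0.011 to 0.320, among them the fit without mutant set 2 (0.043) or its replicate 1 (0.045). The size of the change and the distance from Ankrd11 had a Spearman rho of 0.20 across the 23 tested members, which share libraries.

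**Figure D2:**
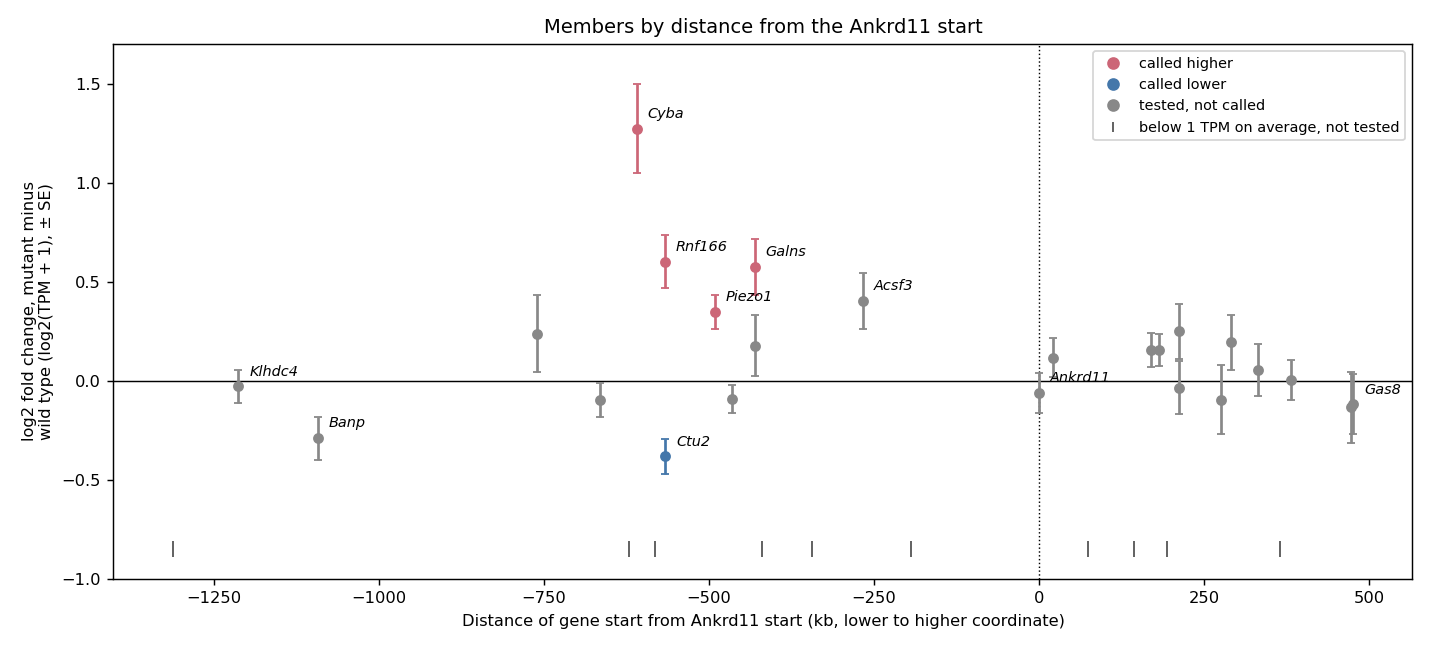
Log2 fold change (mutant minus wild type, log2(TPM + 1) scale, ± SE from limma) of the tested members and of Ankrd11 against the distance of each gene start from the Ankrd11 start in kb. Red and blue points are called higher and lower, grey points were not called, and ticks mark the 10 members too low to test. The called members lie between 431 and 609 kb on the lower-coordinate side.

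Among the transcription and RNA factors, 5 of 8 were tested and none was called. Banp, a nuclear matrix protein that binds CG-rich promoter elements, came closest, with 17.3 and 17.9 TPM in wild-type set 1 and 19.3 and 19.6 TPM in set 2. Mutant libraries had 16.0 and 12.9, 12.95 and 15.3, and 16.7 and 16.2 TPM in sets 1, 2 and 3, all below the wild-type libraries. The log2 fold change was -0.29 ± 0.11 (limma adjusted p = 0.104), and only the fits over 10 libraries without a set term called it (0.017 with no block and 0.026 with the replicate number as a block). Zc3h18, an adaptor between the cap-binding complex and nuclear RNA decay, had wild-type libraries of 41.0 to 42.5 TPM and mutant libraries of 33.5 to 40.9 TPM without overlap, but a difference of only -0.10 ± 0.09. Zfpm1, the GATA cofactor FOG1, was at 3.40 ± 0.481 and 4.26 ± 1.08 TPM, the zinc finger gene Zfp276 at 4.15 ± 0.534 and 5.13 ± 0.498 TPM, and Tcf25, which takes part in ribosome quality control, at 80.9 ± 20.3 and 81.4 ± 1.49 TPM. In all, libraries of the 2 genotypes did not overlap for 3 members that were higher and 3 that were lower in the mutant, out of 23. Over all tested genes this held for 12.4% and 19.4%, or 31.8% in either direction.

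Of the 7 genes of membrane traffic and the cytoskeleton 6 were tested and none was called. Trappc2l, a subunit of the TRAPP tethering complex, had a log2 fold change of 0.18 ± 0.15, and Chmp1a, of the ESCRT-III membrane scission machinery, 0.15 ± 0.09. Vps9d1 (-0.04 ± 0.13), the actin nucleator Spire2 (0.19 ± 0.14), Def8 (0.00 ± 0.10), which acts in lysosome positioning, and Gas8 (-0.12 ± 0.15), part of the dynein regulatory complex of motile cilia, completed this group. In the complexes that these proteins belong to, 1 of 13 other TRAPP genes rose (Trappc6a, 0.56 ± 0.11, limma adjusted p = 0.023) and 1 of 12 other ESCRT-III genes fell (Chmp4c, -0.61 ± 0.10, adjusted p = 0.012). Both counts stand beside 6.97% of all tested genes called higher and 10.5% called lower. Also not called were the kinase gene Cdk10 (27.5 ± 1.04 and 30.7 ± 1.05 TPM), Klhdc4 (23.5 ± 0.948 and 23.0 ± 0.795 TPM) and Dbndd1 (2.04 ± 0.0424 and 1.79 ± 0.430 TPM). Of the 18 tested members without a call, 14 changed by less than 0.2 on the log2 scale in either direction.

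Fanca showed a difference between mutant sets instead of one between genotypes. It encodes a subunit of the Fanconi anaemia core complex, which licenses repair of DNA interstrand crosslinks. Its wild-type libraries had 28.1, 29.4, 29.6 and 28.1 TPM, mutant set 1 had 28.8 and 29.5 TPM, mutant set 2 had 19.99 and 21.3 TPM and mutant set 3 had 31.2 and 33.3 TPM. Mutant set 2 was below every other library, and the genotypes otherwise overlapped. The F test between mutant sets gave a limma adjusted p of 0.0016, with set 2 lower than set 1 by 0.48 ± 0.06, while the genotype difference was -0.10 ± 0.18 (adjusted p = 0.730). The 3′ part of Fanca overlaps Zfp276 on the opposite strand over 1446 bases. Of 11 other genes of the core complex and its helpers, 3 fell (Fancl, -0.81 ± 0.09, Fancb and Fancm) and Faap20 rose (0.47 ± 0.08), with limma adjusted p between 0.0060 and 0.039. Calls over all tested genes were 10.5% lower and 6.97% higher, and the list was not tested as a set.

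Between the mutant sets, 3 of the 23 tested members differed by the F test (Cyba, Fanca and Aprt), where 19.6% of all tested genes did. The number was 2 with a pseudocount of 0.1, with no filter and with no variance trend, and 4 after the GC correction and under both rescalings. Aprt had 156 and 153 TPM in wild-type set 1 and 161 and 160.3 TPM in set 2. Its mutant libraries had 156 and 154 TPM in set 1, 142 and 142 TPM in set 2 and 148 and 143 TPM in set 3 (adjusted p = 0.049), so set 1 lay above the other mutant sets and overlapped the wild type. Ankrd11 differed as well (adjusted p = 0.041), with mutant set 2 below set 1 by 0.26 ± 0.06 on the log2 scale. Between the 2 wild-type sets 1 member, Cyba, differed, where 2.75% of all tested genes did.

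**Figure D3:**
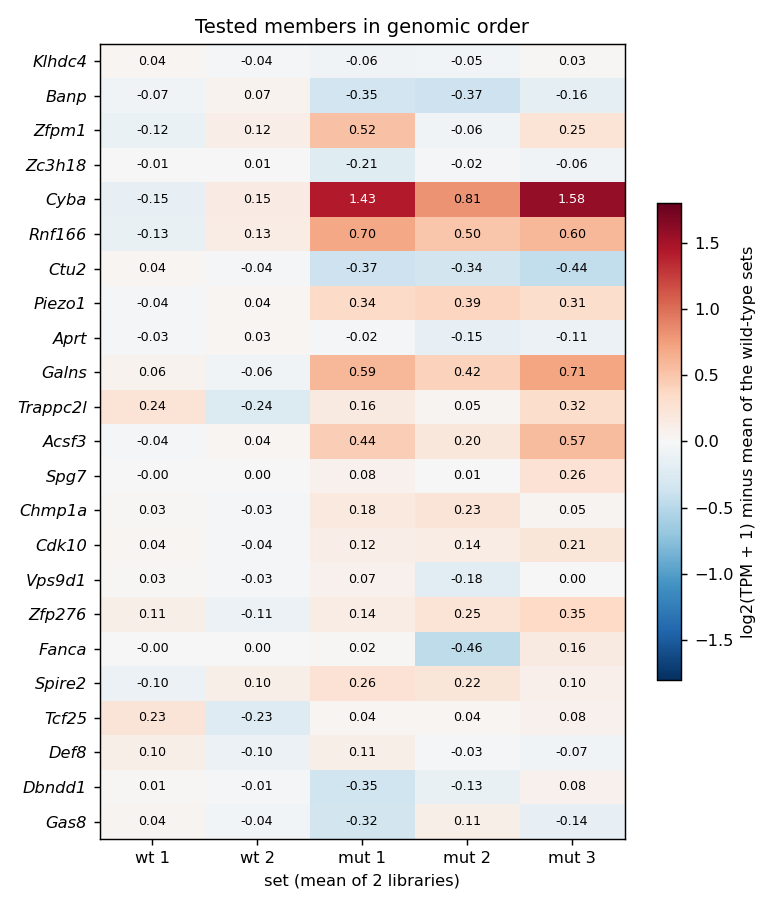
Deviation of each set mean from the mean of the wild-type sets, in log2(TPM + 1), for the 23 tested members from lowest to highest coordinate. Cyba reaches 1.43, 0.81 and 1.58 in mutant sets 1, 2 and 3, Rnf166, Piezo1 and Galns are positive and Ctu2 negative in all 3 mutant sets, and Fanca, among the mutant sets, is negative in set 2 alone (-0.46).

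The other 10 matched members averaged below 1 TPM, and no library held more than 0.97 TPM of any of them. Several are known from differentiated tissues, such as Jph3, a junctophilin of neurons (at most 0.57 TPM), Cdh15, the M-cadherin of muscle (at most 0.05 TPM), Mc1r, the melanocortin receptor of pigment cells (at most 0.14 TPM), Dpep1, a dipeptidase of kidney (at most 0.28 TPM), and Il17c, an epithelial cytokine (at most 0.11 TPM). Cbfa2t3, a corepressor of blood cells, had at most 0.32 TPM and Spata2l at most 0.63 TPM. Pabpn1l, a poly(A)-binding protein gene known from oocytes, was listed at 0 in all 10 libraries. Cpne7, a copine, had 0.15 to 0.60 TPM in the wild-type and 0.50 to 0.97 TPM in the mutant libraries, and Snai3 0.07 to 0.34 and 0.09 to 0.58 TPM. No fold change is given at these levels. Car5a, the mitochondrial carbonic anhydrase gene listed as Ca5a, had 2.32 ± 0.226 and 1.96 ± 0.587 TPM (-0.17 ± 0.20, limma adjusted p = 0.572).

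Divergent gene pairs gave a comparison within one promoter region. Among pairs that start within 1000 bases of each other on opposite strands, 5 had both genes tested and held a member or Ankrd11. The TPM ratio of Rnf166 to Ctu2 was 0.205, 0.185, 0.247 and 0.270 in the wild-type libraries and 0.430 to 0.583 in the 6 mutant libraries, without overlap. Galns and Trappc2l start 176 bases apart, and their ratio was 0.0771 to 0.122 in the wild type and 0.121 to 0.181 in the mutant, which overlap. Ankrd11 starts 188 bases from 2810013P06Rik (ENSMUSG00000099881.1, chromosome 8, 123042466 to 123044602, plus strand), a non-coding RNA annotated as sharing its promoter and not among the listed genes. This RNA had 3.82, 4.35, 3.48 and 4.12 TPM in the wild-type libraries and 7.09 and 7.52, 6.72 and 7.43, and 8.26 and 7.77 TPM in mutant sets 1, 2 and 3. It rose from 3.94 ± 0.202 to 7.47 ± 0.490 TPM (0.78 ± 0.12, limma adjusted p = 0.011). The ratio of Ankrd11 to it was 14.7 to 17.3 in the wild type and 7.18 to 9.73 in the mutant.

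The test over the 5 sets used log2(TPM + 1) of the first gene minus that of the second, not the TPM ratios above. The added 1 shrinks the changes of low genes, so these values differ from the log2 of the TPM ratios. Between genotypes the difference was 0.98 for Rnf166 over Ctu2, 0.40 for Galns over Trappc2l and -0.84 for Ankrd11 over 2810013P06Rik. Each gave p = 0.1 in a two-sided exact permutation test (0.167 adjusted over the 5 pairs). With 10 ways to choose 2 of 5 sets, 0.1 is the smallest p this design allows. Chmp1a and its partner Spata33 (68 bases apart) gave -0.69 with an exact permutation p of 0.2, and Vps9d1 and Zfp276, which overlap at their 5′ ends by 154 bases, gave -0.28 with an exact p of 0.3. The non-coding RNA, Spata33 and Gm42047, described next, are no listed members and were picked with their values known.

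**Figure D4:**
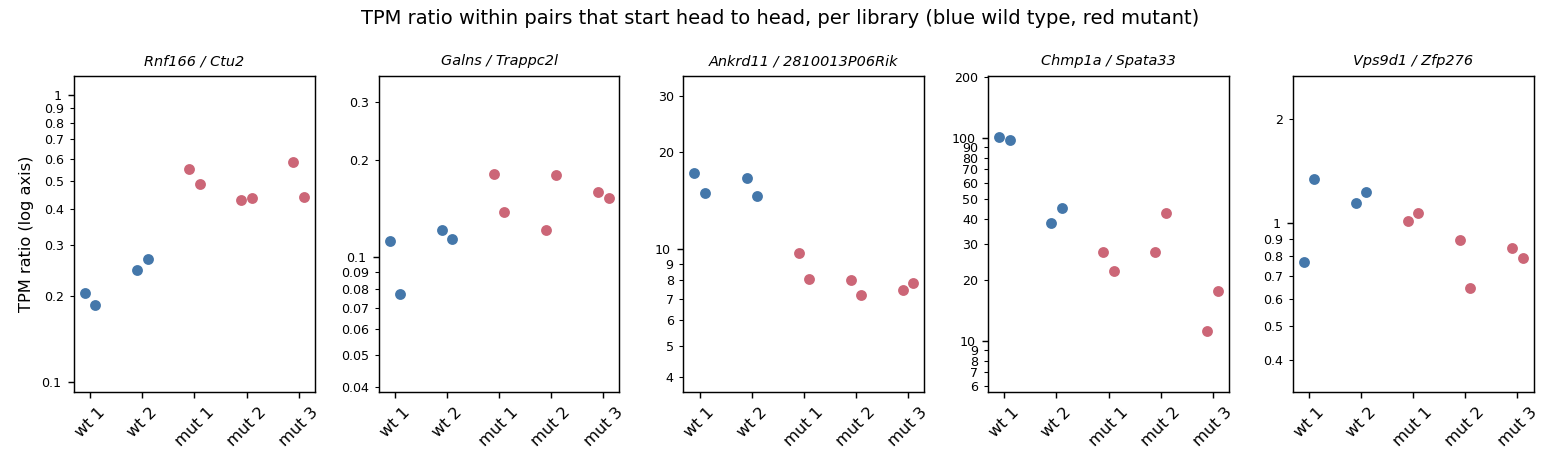
TPM ratio of the minus-strand to the plus-strand gene in each library for 5 divergent pairs, on log axes, with wild-type sets in blue and mutant sets in red. The Rnf166 to Ctu2 ratio lies between 0.185 and 0.270 in the wild type and between 0.430 and 0.583 in the mutant, and the Ankrd11 to 2810013P06Rik ratio between 14.7 and 17.3 and between 7.18 and 9.73.

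The segment holds 48 other annotated genes between Jph3 and Gas8, of which 13 were tested. Car5a, the listed Ca5a, is counted in both numbers because its name matched no listed symbol. Besides 2810013P06Rik, 1 was called. Gm42047, a lincRNA between Klhdc4 and the amino acid transporter gene Slc7a5 (chromosome 8, 121833247 to 121841178, plus strand), had 14.6 and 14.6, 10.1 and 11.4 TPM in wild-type sets 1 and 2. In the mutant it had 0.34 and 0.15, 1.15 and 1.19, and 0.43 and 0.92 TPM in sets 1, 2 and 3. It fell from 12.7 ± 2.72 to 0.697 ± 0.463 TPM (-3.04 ± 0.26, limma adjusted p = 0.0027), a larger change than that of any tested member. The neighbour Klhdc4 did not pass (-0.03 ± 0.08, adjusted p = 0.829).

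G and C content moved with the direction of change across the genome. Over 12785 tested genes with a transcript sequence, the log2 fold change and the GC percentage had a Spearman rho of 0.25. When the genes were cut into 5 equal groups by GC content, the 2 richest groups held 9.93% and 11.03% of genes called higher, against 3.09% in the poorest. All 23 tested members fall in those 2 groups, with GC between 53.5% and 62.2%. After a correction of each library for GC content, all 23 values were lower and the median over the members was 0.07. Cyba (1.18 ± 0.22, limma adjusted p = 0.020), Rnf166 (0.50 ± 0.12, 0.038), Galns (0.51 ± 0.13, 0.045) and Ctu2 (-0.46 ± 0.09, 0.021) passed after it, and Piezo1 (0.26 ± 0.08, 0.069) did not. The part of GC content in the counts by direction was not tested further.

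**Figure D5:**
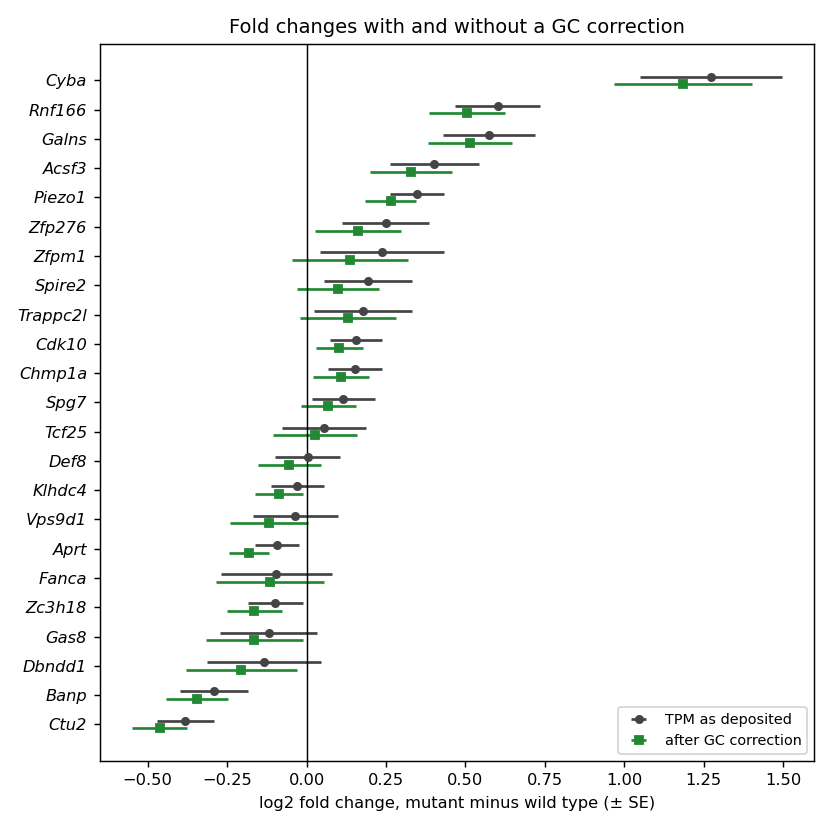
Log2 fold change (mutant minus wild type, ± SE from limma) of the 23 tested members from TPM as deposited (circles) and after correcting each library for transcript GC content (squares). Every square lies to the left of its circle, by little beside the fold changes of Cyba, Rnf166, Galns and Ctu2.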

How the data were processed

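Poly(A) RNA-seq of 10 libraries was analysed. The authors deposited TPM for each gene in each library. Trim Galore, STAR, RSEM and DESeq2 with mm10 are named per the submitters' processing notes. No source used here gives their versions or settings, the strand mode or the annotation. All 10 columns matched samples by name. Libraries sum to 1000000 TPM, so depth and counting error are unknown, and TPM were not treated as counts.

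The members and gene lists were chosen with earlier results of these data known. Some results of the lists for NADPH oxidase and lysosomal breakdown are not reported here. Members were the rows whose name equals a listed symbol. Of 55401 identifiers, 55141 were placed in GENCODE M21 (GRCm38). Values were taken as log2(TPM + 1), with a pseudocount of 1, genes averaging at least 1 TPM were kept, the 2 libraries of a set were averaged, and mutant and wild-type sets were compared with limma 3.58.1 under R 4.3.3 (two-sided moderated test with eBayes and a variance trend, on 3 degrees of freedom from the residuals and 4.01 from the prior). P-values were Benjamini-Hochberg adjusted over all 12797 genes, with a threshold of 0.05. They measure the spread between these sets, which may be technical. Sets within a genotype were compared over the 10 libraries with 1 mean per set. GC content is the mean over a gene's transcripts, and the correction was a lowess fit per library (span 0.3). The fit was run on simulated set means with independent noise for each gene, which cannot show effects that many genes of a set share. All tested members are named, and members called or differing between sets are given per library. Figures were drawn with matplotlib 3.10.9.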

Additional observations from a re-analysis of the deposited data

Results flagged for a closer look

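In 3 members 1 wild-type library stood far from the other 3. Tcf25 had 118 TPM in wild-type set 1 replicate 1, where the others had 65.3 to 72.0 TPM. Gas8 had 7.38 TPM in wild-type set 1 replicate 2, where the others had 6.14 to 6.33 TPM. Zfp276 had 3.15 TPM in wild-type set 2 replicate 2, where the others had 4.40 to 4.62 TPM. None of the 3 genes was called between genotypes. Such gaps were looked for in 46 groups of libraries, and chance flags about 1 in 20.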

How the results depend on the processing

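Under 27 alternatives no called value changed sign, and the 5 called members kept their direction in each. With no filter on mean TPM 250 genes were higher and 559 lower, 0 members passed in either direction, the member median was 0.0577 over 32 members, and 0 members differed between wild-type sets, as also after the GC correction and with no variance trend. At a mean of at least 5 TPM the median over 17 members was 0.0539. Quantile normalization called 2 other genes of the segment higher. Over 10 libraries with no block, 2166 genes were higher and 3103 lower, 2 members were lower, and 3 other genes of the segment were called in each direction. With the replicate number as a block these were 2054, 2944, 2 and 3, and with the set as a random block 2063 genes were lower, 0 members lower, and 3 and 2 other genes of the segment higher and lower. Replicate numbers did not pair libraries (correlations of deviations from -0.08 to 0.12), nor did set numbers (-0.16 and -0.09). With the set number as a block 209 genes were higher and 362 lower, 1 member higher and 0 lower, the median 0.0444, and 0 and 2 other genes called.

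Fits without a whole set rest on 4 sets, and 1 wild-type set remains where a wild-type set is left out. Without wild-type set 1, 83 genes were higher and 113 lower, and without wild-type set 2, 10 and 32, with 0 members called, 0 other genes higher, and in the second case a member median of -0.0633. Without mutant set 1 the counts were 241 and 413 with 0 members. Without mutant set 2 they were 1005 and 1388, with 4 members higher, 1 lower and 3 other genes of the segment higher. The member counts equal those of the main fit, but Acsf3 was gained and Piezo1 lost. Without mutant set 3 they were 315 and 605, with 1 member higher, 0 lower, a median of 0.0444 and 3 other genes lower. Leaving out single libraries gave 2 to 5 members higher, 0 to 1 lower and 1 to 2 other genes lower. The cause was not tested. Rescaling by the median of ratios moved the median of all genes from -0.04 to near 0 and left the 5 member calls. Depth is unknown, so members below 1 TPM allow no statement.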
